A study of Mus musculus with 12 samples.

Results

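The genes described here are 36 mouse genes that encode the stress sensors, chaperones, folding enzymes and disposal factors of the endoplasmic reticulum (ER). They were picked by name, from a list of ATF6, XBP1 and ER folding and disposal genes, out of the 24318 gene rows of 2 deposited expression tables, and all 36 were found. Messenger RNA was sequenced from N2a cells, a mouse neuroblastoma line, in 3 groups of 4 libraries. Cells of the SE-BDEV group received brain-derived extracellular vesicles (BDEVs, small membrane-bound particles that cells release) of the SE group, with SE read from the series title as status epilepticus, a seizure that does not stop by itself. Cells of the CON-BDEV group received vesicles of the group labelled CON, which the labels do not spell out, and cells of the Vehicle group received vehicle. The labels used here give no dose, no time and no source animal, and leave unsaid if each library had a culture or vesicle preparation of its own. The p-values therefore refer to the spread among these libraries alone, and that spread may be technical.

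The ER lumen is where secreted and membrane proteins fold. When unfolded proteins build up there, a set of membrane sensors starts the unfolded protein response: IRE1 (gene Ern1) splices the messenger of the transcription factor XBP1, ATF6 travels to the Golgi and is cut into a transcription factor, and PERK (gene Eif2ak3) phosphorylates the initiation factor eIF2alpha, which slows translation while ATF4 and CHOP (gene Ddit3) are made. The targets refill the ER with chaperones such as BiP (gene Hspa5) and GRP94 (gene Hsp90b1) and with the machinery that pulls misfolded proteins out for degradation. In neuronal cells, which move much protein through the ER, the same response accompanies many kinds of stress. Splicing of Xbp1 and cleavage of ATF6 are not visible in values per gene.

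A sequence shared by part of these genes is the ER stress response element (ERSE), the site through which ATF6 and XBP1 are known to act. RefSeq promoters, from 250 bases before to 50 bases after a start site on GRCm38.p6, were matched for 31 of the 36 genes, with Ero1l, Ero1lb and Vimp found under the symbols Ero1a, Ero1b and Selenos. ERSE, spelled CCAAT, any 9 bases and CCACG and searched on both strands like the others, was in the promoters of 10 of the 31 genes (32.3%) and of 37 of all 27025 genes with a promoter (0.137%). ERSE-II, spelled ATTGG, any 1 base and CCACG, was in 2 of the 31 (6.45%) and in 12 of all genes (0.0444%). The UPRE core TGACGTGG was in 0 of the 31 and in 0.714% of all genes. The 3 motifs share letters (CCACG in the first pair). A match describes letters and is not shown to be a used site. The list was picked by name as ATF6, XBP1 and ER genes, so that choice bears on these shares, and they are no test. The matches are printed below because they recur in part of these promoters, with fixed letters in capitals, 5′ to 3′ on the strand that matched. Hsp90b1 held 2 of them:
Hspa5: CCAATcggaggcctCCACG
Hsp90b1: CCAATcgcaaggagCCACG
Hsp90b1: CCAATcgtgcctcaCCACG
Calr: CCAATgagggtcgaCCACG
Canx: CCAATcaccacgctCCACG
Pdia6: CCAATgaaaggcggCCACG
Creld2: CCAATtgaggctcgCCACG
Dnajc3: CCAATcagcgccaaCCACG
Ero1lb: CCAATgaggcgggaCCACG
Syvn1: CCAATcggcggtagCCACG
Derl3: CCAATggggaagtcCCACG
Herpud1: ATTGGgCCACG
Dnajb11: ATTGGcCCACG

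The 250 bases before the start site follow for 3 genes on which the results turn, on the strand of the gene, with the fixed letters of the match in capitals. They are those of the chaperone gene Hspa5 (GRCm38.p6, chr2:34771840-34772089, plus strand), of Calr (chr8:84846932-84847181, minus strand), where the match lies on the opposite strand and so reads CGTGG to ATTGG, and of Herpud1 (chr8:94386179-94386428, plus strand), which holds ERSE-II.
Hspa5: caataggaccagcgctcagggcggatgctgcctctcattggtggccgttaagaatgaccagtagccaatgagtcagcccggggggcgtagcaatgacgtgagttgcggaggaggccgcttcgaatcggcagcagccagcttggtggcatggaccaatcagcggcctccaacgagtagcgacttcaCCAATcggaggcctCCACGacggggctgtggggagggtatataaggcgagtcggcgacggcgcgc
Calr: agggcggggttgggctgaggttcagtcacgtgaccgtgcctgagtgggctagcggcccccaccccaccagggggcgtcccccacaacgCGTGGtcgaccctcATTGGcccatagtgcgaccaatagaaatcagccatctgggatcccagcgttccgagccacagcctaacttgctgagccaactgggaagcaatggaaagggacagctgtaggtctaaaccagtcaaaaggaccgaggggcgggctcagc
Herpud1: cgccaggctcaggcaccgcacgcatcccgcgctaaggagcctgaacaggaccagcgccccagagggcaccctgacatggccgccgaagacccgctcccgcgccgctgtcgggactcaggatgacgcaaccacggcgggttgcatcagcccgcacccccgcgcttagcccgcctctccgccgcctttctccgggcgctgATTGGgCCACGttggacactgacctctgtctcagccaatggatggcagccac

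Values are FPKM, that is fragments counted per kilobase of a transcript and scaled by library depth, as deposited by the authors. Approximate depths, read from the lowest nonzero values, were 12400000 to 14300000 fragments per library in SE-BDEV, 12200000 to 13400000 in CON-BDEV and 13900000 to 14900000 in Vehicle. Of the markers of cells that a brain preparation could bring along, 0 of 5 for astrocytes, 0 of 5 for microglia and 0 of 4 for red blood cells had a mean of at least 1 FPKM, against 2 of 5 for oligodendrocytes and 1 of 5 each for endothelium and forebrain neurons. The summed level of the 5 microglia markers was 0 to 0.127 FPKM in SE-BDEV, 0 to 0.0808 in CON-BDEV and 0 to 0.0312 in Vehicle, and the endothelial Cldn5, the neuronal Neurod6 and the globin gene Hbb-b1 were listed at 0 in every library. The red blood cell sum was 0.0348 to 0.33 FPKM in SE-BDEV, 0 to 0.115 in CON-BDEV and 0 to 0.0356 in Vehicle, and the astrocyte sum was 0.744 to 0.986, 0.64 to 0.849 and 0.99 to 1.14 FPKM in the same order. The sums for oligodendrocytes (5.88 to 6.51, 5.82 to 6.84 and 5.86 to 6.07 FPKM), endothelium (2.63 to 3.6, 3.17 to 3.65 and 2.95 to 3.53) and forebrain neurons (5.11 to 5.99, 4.89 to 6.02 and 5.81 to 6.28) overlapped between the groups. Their part in the results was not tested.

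In cells given vehicle, these genes covered a wide range of levels per length. Hsp90b1 (mean 513 FPKM), the calcium-binding lectin chaperone gene Calr (483), Hspa5 (439) and Canx (329), the gene of calnexin, stood at the top, and the ranges of these 4 over the Vehicle libraries did not overlap. The disulphide isomerase genes Pdia3 (250 FPKM) and P4hb (237) followed. In all, 10 of the 36 genes had a Vehicle mean of at least 100 FPKM and 34 of at least 10 FPKM. The sensors lay near the bottom of the order: Ern1 at 15.2, Atf6 at 14.6 and Eif2ak3 at 13.5 FPKM, with Ern1 and Atf6 overlapping in range. Derl3, whose product helps to move proteins out of the ER, was listed at 0 to 0.123 FPKM over all 12 libraries and was the 1 gene of the list too low to test, so 35 were tested.

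The list as a whole lay close to Vehicle in both vesicle groups. The median difference from Vehicle on the log2(FPKM + 1) scale was −0.006 over the 35 genes in SE-BDEV (15 higher, 20 lower), beside 0.009 over all 11311 genes tested, and 0.003 in CON-BDEV (18 higher, 17 lower), beside 0.004 over all 11320 genes. The median size of a difference, sign left out, was 0.051 in SE-BDEV and 0.058 in CON-BDEV, against 0.059 and 0.058 over all genes tested. With limma and Benjamini-Hochberg adjustment over all genes tested, 0 of the 35 passed an adjusted p of 0.05 in SE-BDEV, where 0.919% of all genes did, and 5 had an unadjusted p under 0.05 (14.3%, beside 14.8% of all genes). In CON-BDEV 1 of the 35 passed, where 2.84% of all genes did (1.02% higher), and 6 had an unadjusted p under 0.05 (17.1%, beside 19.1%). The authors' deposited table called 0 of the 35 genes in either comparison, beside 140 of all 11928 genes it tested for SE-BDEV and 215 of 11912 for CON-BDEV.

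**Figure D1:**
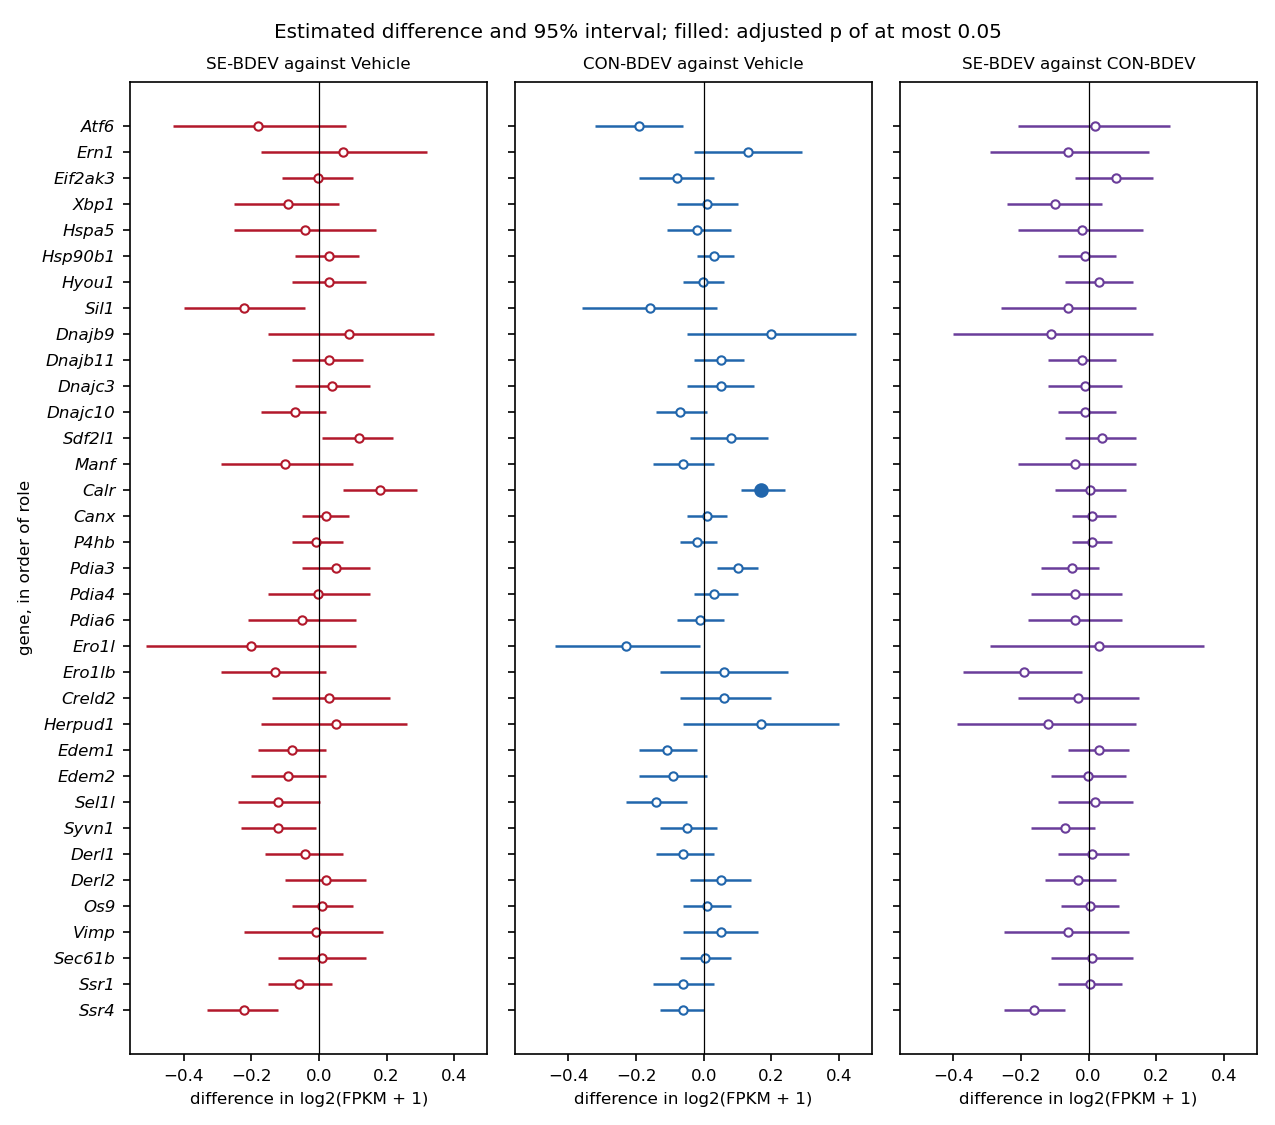
Difference in log2(FPKM + 1) for each of the 35 genes tested (points) with its 95% interval from limma (lines), in 3 panels for SE-BDEV against Vehicle, CON-BDEV against Vehicle and SE-BDEV against CON-BDEV. Calr in CON-BDEV is the 1 filled point, which marks an adjusted p of at most 0.05; most intervals cross 0.

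Calr was the 1 of 35 genes called in CON-BDEV against Vehicle (2.86%, beside 2.84% of all genes). It was called as higher, as were 1.02% of all genes. Its product, calreticulin, holds newly made glycoproteins and buffers ER calcium (mm9, chromosome 8, 87365987 to 87370830). The Vehicle libraries 1 to 4 had 481, 484, 484 and 484 FPKM, a range on the log2 scale as narrow as or narrower than which only 0.186% of all genes had. The CON-BDEV libraries had 579, 528, 529 and 543 FPKM, and the SE-BDEV libraries had 564, 484, 574 and 566 FPKM. All CON-BDEV libraries lay above all Vehicle libraries, while SE-BDEV replicate 2 lay at the Vehicle level and its other 3 libraries above it. The rise in CON-BDEV, from 483 ± 1.68 to 545 ± 23.7 FPKM (SD, n = 4 each), was a log2 difference of 0.17 ± 0.03 (standard error; limma adjusted p = 0.014). In SE-BDEV the mean was 547 ± 42.2 FPKM (SD, n = 4), a log2 difference of 0.18 ± 0.05 that missed the threshold (limma adjusted p = 0.144). Without SE-BDEV replicate 2 it was 0.23 with a limma adjusted p of 0.00376, in a fit where 2.79% of all genes passed. Calr did not pass in SE-BDEV with any other single library left out (limma adjusted p up to 0.32). The call in CON-BDEV was lost without Vehicle replicate 1 (limma adjusted p = 0.0516, where 1.18% of all genes passed) and in a fit of all 12 libraries (limma adjusted p = 0.11), in which the wider SE-BDEV group shares the estimate of spread. The authors' deposited table gave q-values of 0.203 for CON-BDEV and 0.294 for SE-BDEV. In bulk RNA, a change in all cells and fewer or more cells of one kind cannot be told apart.

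Pdia3 (ERp57), the disulphide isomerase that works together with calreticulin on glycoproteins, was close to the threshold in CON-BDEV. Its Vehicle libraries had 248, 251, 253 and 246 FPKM, and its CON-BDEV libraries had 277, 259, 265 and 271 FPKM. Again the groups did not overlap (log2 difference 0.10 ± 0.03, standard error; limma adjusted p = 0.0686, and 0.0368 without CON-BDEV replicate 2). Leaving out other single libraries took the limma adjusted p up to 0.172. In SE-BDEV, with 264, 237, 256 and 277 FPKM, replicate 2 was below all Vehicle libraries and the other 3 were above (log2 difference 0.05; limma adjusted p = 0.658). Canx, the membrane-bound partner of Calr, had log2 differences of 0.02 and 0.01, with 95% intervals of −0.05 to 0.09 in SE-BDEV and −0.05 to 0.07 in CON-BDEV.

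Ssr4 had the lowest p in SE-BDEV. It encodes the delta subunit of the translocon-associated protein complex, which sits beside the channel through which new proteins enter the ER (mm9, chromosome X, 71032367 to 71036167). The Vehicle libraries had 68.5, 65.8, 64.6 and 69.0 FPKM, the CON-BDEV libraries 65.0, 64.1, 64.0 and 62.8 FPKM, and the SE-BDEV libraries 57.8, 52.7, 57.3 and 61.6 FPKM. All SE-BDEV libraries lay below all libraries of both other groups, 1 of 2 genes of the list to lie wholly below Vehicle in SE-BDEV (5.71%, beside 4.39% of all genes tested) and the 1 of 35 to be apart from CON-BDEV (2.86%, beside 1.39%). The log2 difference of SE-BDEV from Vehicle was −0.22 ± 0.05 (standard error), with a limma adjusted p of 0.0583 that ranged from 0.0173 to 0.182 over the alternative fits. Against CON-BDEV it was −0.16 ± 0.04 (standard error), with an unadjusted p of 0.00234 and a limma adjusted p of 1.0. The other genes of protein entry, Ssr1 and Sec61b, had log2 differences of −0.06 and 0.01 in SE-BDEV and overlapped with Vehicle.

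**Figure D2:**
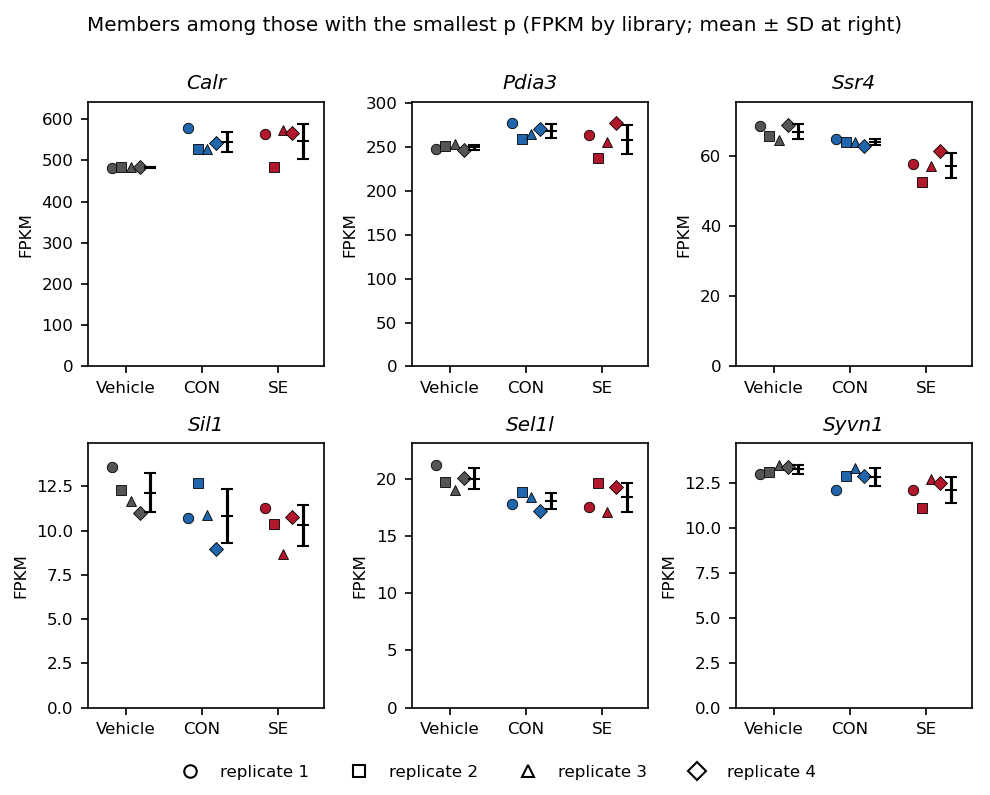
FPKM by library (points, shape by replicate) for Calr, Pdia3, Ssr4, Sil1, Sel1l and Syvn1 in Vehicle, CON-BDEV and SE-BDEV, with the mean ± SD of each group of 4 at the right of its points and axes from 0. Calr lies at 481 to 484 FPKM in Vehicle and at 528 to 579 FPKM in CON-BDEV, and Ssr4 is lower in all 4 SE-BDEV libraries (52.7 to 61.6 FPKM) than in any other.

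Of the 9 tested genes of ER-associated degradation, 0 passed in either group, where 0.919% and 2.84% of all genes did. Of the 9, 3 were higher and 6 lower in SE-BDEV, where 54.6% of all genes were higher, and 4 were higher and 5 lower in CON-BDEV, where 52.0% were higher. Sel1l, the adaptor that carries substrates to the ubiquitin ligase of the ER membrane, had 21.2, 19.7, 19.0 and 20.1 FPKM in Vehicle, 17.8, 18.8, 18.4 and 17.2 FPKM in CON-BDEV and 17.5, 19.6, 17.1 and 19.3 FPKM in SE-BDEV. CON-BDEV lay below Vehicle without overlap (log2 difference −0.14; limma adjusted p = 0.103), and SE-BDEV overlapped with it (−0.12; limma adjusted p = 0.345). Edem1, a lectin that marks misfolded glycoproteins for disposal, had 20.7, 19.0, 19.7 and 20.1 FPKM in Vehicle, 18.9, 17.6, 18.9 and 18.1 FPKM in CON-BDEV and 19.8, 18.2, 17.8 and 19.2 FPKM in SE-BDEV. Its CON-BDEV libraries too lay below all Vehicle libraries (−0.11; limma adjusted p = 0.167), as did those of the related lectin gene Edem2 (−0.09; limma adjusted p = 0.319). Syvn1, which encodes the ubiquitin ligase HRD1 itself, had 13.0, 13.1, 13.5 and 13.4 FPKM in Vehicle, 12.1, 12.9, 13.3 and 12.9 FPKM in CON-BDEV and 12.1, 11.1, 12.7 and 12.5 FPKM in SE-BDEV. Here it was SE-BDEV that did not overlap with Vehicle (log2 difference −0.12; limma adjusted p = 0.277). In all, groups did not overlap for 2 of 35 genes in SE-BDEV (5.71%, beside 10.2% of all genes tested) and for 5 of 35 in CON-BDEV (14.3%, beside 11.9%), 2 of them higher (5.71%, beside 5.68%) and 3 lower (8.57%, beside 6.24%).

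Among the helpers of BiP, Sil1 and Sdf2l1 had the lowest p in SE-BDEV. Sil1, which exchanges the nucleotide on BiP, had 13.6, 12.3, 11.7 and 11 FPKM in Vehicle, 10.7, 12.7, 10.9 and 8.96 FPKM in CON-BDEV and 11.3, 10.4, 8.69 and 10.8 FPKM in SE-BDEV (log2 difference −0.22 for SE-BDEV; limma adjusted p = 0.238). Sdf2l1, part of a chaperone complex with BiP, had 53.3, 48.5, 54.0 and 46.6 FPKM in Vehicle, 53.9, 54.3, 55.9 and 49.8 FPKM in CON-BDEV and 55.3, 53.6, 54.0 and 56.4 FPKM in SE-BDEV (log2 difference 0.12; limma adjusted p = 0.304). Both sets of values overlapped between the groups. The other 17 tested genes, among them Canx, Pdia4, Pdia6, P4hb, Hyou1, Dnajb11, Dnajc3, Dnajc10, Creld2, Derl1, Derl2, Os9 and Vimp, had log2 differences from −0.10 (Manf) to 0.04 (Dnajc3) in SE-BDEV and from −0.09 (Edem2) to 0.06 (Creld2) in CON-BDEV, with limma adjusted p of at least 0.421 and 0.296.

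The libraries given vesicles differed among themselves in these genes. The median range of a gene over the 4 libraries of a group was 0.08 on the log2 scale in Vehicle, 0.14 in CON-BDEV and 0.23 in SE-BDEV, against 0.13, 0.17 and 0.20 over all genes. The list's median range was thus below that of all genes in Vehicle and CON-BDEV and above it in SE-BDEV. The widest ranges were those of Ero1l (0.79 in SE-BDEV and 0.60 in CON-BDEV) and Dnajb9 (0.63 and 0.71).

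SE-BDEV replicate 2 stood apart from the other libraries of its group in these genes. In it, 24 of the 35 genes lay below all 4 Vehicle libraries (68.6%, beside 33.1% of all genes in that library) and 7 lay above, where 32.4% of all genes did. The median Vehicle range was narrower in the list (0.08) than over all genes (0.13), so smaller differences take genes of the list out of it. The shares are therefore not like for like. In SE-BDEV replicate 1 too, 40.0% of the list lay above and 31.4% below, beside 28.9% and 23.3% of all genes. The low genes included the chaperones and isomerases: Hspa5, Hsp90b1, Hyou1, Pdia3, Pdia4, Pdia6, P4hb, Creld2 and Manf. The high ones were Atf6, Ern1, Dnajb9, Herpud1, Derl1, Derl2 and Ero1l. In SE-BDEV replicates 1, 3 and 4, in contrast, Hspa5, Hsp90b1, Calr, Canx, Pdia3, Pdia4, Dnajb11, Sdf2l1, Creld2, Hyou1 and Sec61b all lay above the Vehicle range, and Atf6 and Ero1l below it. Syvn1 and Ssr4 lay below the Vehicle range in all 4 SE-BDEV libraries. SE-BDEV replicate 2 was not the shallowest library of its group by estimated depth. Across all genes its differences from Vehicle had a Spearman correlation of 0.07 with transcript length and −0.13 with GC content (10901 genes, a description), within the range of the other libraries for length (−0.10 to 0.11) and below theirs for GC (−0.12 to 0.13). Whether culture, RNA or library handling differed for it was not tested.

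**Figure D3:**
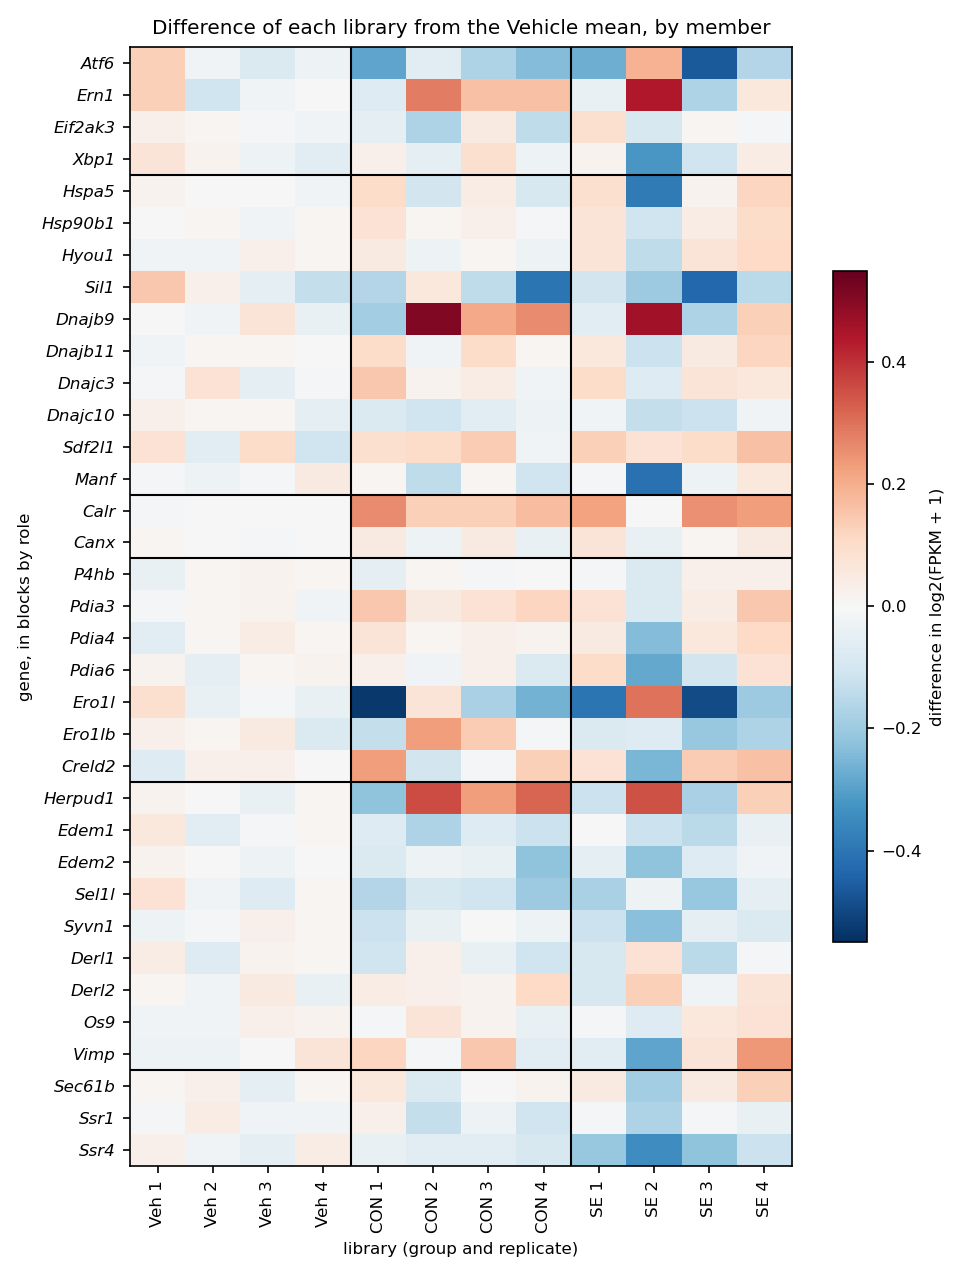
Difference of each of the 12 libraries (columns) from the Vehicle mean in log2(FPKM + 1) for the 35 genes tested (rows, in blocks of sensors and Xbp1, BiP and GRP94 with cofactors, lectins, disulphide enzymes, disposal and protein entry), red for higher and blue for lower. SE-BDEV replicate 2 runs from −0.41 (Manf) to 0.46 (Dnajb9), with Herpud1, Dnajb9 and Ern1 red and Hspa5, Manf and Xbp1 blue.

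In SE-BDEV replicate 2, BiP, GRP94, Manf and Xbp1 were on the low side. Hspa5, which encodes BiP (mm9, chromosome 2, 34627610 to 34632049), had 446, 439, 439 and 433 FPKM in Vehicle, 469, 409, 450 and 411 FPKM in CON-BDEV and 466, 335, 446 and 477 FPKM in SE-BDEV. Without the 335 FPKM of replicate 2, every SE-BDEV library was above the highest Vehicle library before rounding. The group difference was −0.04 on the log2 scale (95% interval −0.25 to 0.17; limma adjusted p = 0.88), and 0.08 without replicate 2 (limma adjusted p = 0.171). Hsp90b1 had 514, 516, 506 and 517 FPKM in Vehicle, 544, 517, 526 and 511 FPKM in CON-BDEV and 539, 476, 527 and 550 FPKM in SE-BDEV, with differences of 0.03 in both groups. Manf, a secreted ER stress protein that protects neurons, was named here after its values were seen. It had 60.7, 45.5, 59.8 and 63.5 FPKM in SE-BDEV beside 59.6 to 62.9 FPKM in Vehicle. Low values were not limited to SE-BDEV: Hspa5, Canx, Hyou1 and Manf lay below all Vehicle libraries in CON-BDEV replicates 2 and 4. In CON-BDEV replicates 1 and 3, Hspa5 and Canx lay above them. In CON-BDEV replicates 2, 3 and 4, 42.9%, 25.7% and 51.4% of the 35 genes lay below all Vehicle libraries. The shares of all genes there were 29.8%, 26.1% and 27.5%. In CON-BDEV replicate 1, 14 of the 35 did, beside 24.9% of all genes. The narrower Vehicle range of the list bears on these shares too. Xbp1, the transcription factor, had 62.9, 49.4, 57.2 and 63.4 FPKM in SE-BDEV, 63.1, 59.8, 65.9 and 60.7 FPKM in CON-BDEV and 64.9, 62.8, 60.4 and 59.5 FPKM in Vehicle (limma adjusted p = 0.579 for SE-BDEV and 0.918 for CON-BDEV).

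Herpud1 and Dnajb9 were on the high side, in CON-BDEV libraries too. Herpud1 encodes a membrane protein that assembles the degradation complex (mm9, chromosome 8, 96910400 to 96919258). It had 68.0, 67.2, 65.3 and 67.5 FPKM in Vehicle, 57.2, 86.0, 78.5 and 84.0 FPKM in CON-BDEV and 61.6, 85.8, 58.9 and 73.6 FPKM in SE-BDEV. In each vesicle group some libraries were above all Vehicle libraries and some below: CON-BDEV replicate 1 and SE-BDEV replicates 1 and 3 were low. Dnajb9 (ERdj4), a BiP cofactor that also restrains IRE1, followed the same order within each vesicle group, but not in Vehicle. It had 19.4, 19.1, 20.3 and 18.8 FPKM in Vehicle, 16.8, 28.1, 22.7 and 23.5 FPKM in CON-BDEV and 18.5, 27.1, 17.2 and 21.4 FPKM in SE-BDEV. For CON-BDEV the log2 differences were 0.17 (Herpud1; limma adjusted p = 0.403) and 0.20 (Dnajb9; limma adjusted p = 0.373). Leaving out CON-BDEV replicate 1 took them to 0.30 and 0.33, both past the threshold (limma adjusted p = 0.00173 and 0.0229), in a fit where 4.91% of all genes passed. Neither passed with any other single library left out, where the limma adjusted p reached 0.663 (Herpud1) and 0.615 (Dnajb9). In SE-BDEV the differences were 0.05 and 0.09 (limma adjusted p = 0.865 and 0.748).

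The sensor genes Ern1 and Atf6 and the oxidase gene Ero1l also had their highest SE-BDEV value in replicate 2. Ern1 had 16.7, 13.9, 15.0 and 15.1 FPKM in Vehicle, 14.4, 18.6, 17.1 and 17.0 FPKM in CON-BDEV and 14.7, 21.0, 13.4 and 15.8 FPKM in SE-BDEV. Atf6 (mm9, chromosome 1, 172634588 to 172797902) had 16.0, 14.4, 13.7 and 14.3 FPKM in Vehicle, 11.7, 14.0, 12.8 and 12.2 FPKM in CON-BDEV and 11.9, 16.7, 10.3 and 13.0 FPKM in SE-BDEV. Ero1l, which passes electrons from the isomerases to oxygen (mm9, chromosome 14, 45902762 to 45938247), had 46.9, 42.7, 43.5 and 42.8 FPKM in Vehicle, 30.2, 46.3, 38.6 and 36.5 FPKM in CON-BDEV and 33.1, 54.3, 30.9 and 38.2 FPKM in SE-BDEV. For Atf6 and Ero1l, 3 of 4 libraries in each vesicle group were below every Vehicle library and replicate 2 was not. The log2 differences in CON-BDEV were −0.19 for Atf6 (limma adjusted p = 0.115) and −0.23 for Ero1l (limma adjusted p = 0.244), and in SE-BDEV −0.18 and −0.20 (limma adjusted p = 0.507 and 0.537). Without CON-BDEV replicate 2 both passed in CON-BDEV (−0.24 and −0.33; limma adjusted p = 0.0468 and 0.0396, where 3.68% of all genes passed). Without SE-BDEV replicate 2, Ero1l passed in SE-BDEV (−0.36; limma adjusted p = 0.021, where 2.79% of all genes passed) and Atf6 did not (−0.30; limma adjusted p = 0.0714). With other single libraries left out, neither gene passed. The limma adjusted p then reached 0.26 (Atf6) and 0.436 (Ero1l) in CON-BDEV, and 0.795 and 0.806 in SE-BDEV. Both comparisons use the same Vehicle libraries.

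Values of the third sensor gene lay closer together. Eif2ak3 had 13.8, 13.6, 13.4 and 13.3 FPKM in Vehicle, 13.1, 11.9, 14.0 and 12.2 FPKM in CON-BDEV and 14.5, 12.6, 13.6 and 13.4 FPKM in SE-BDEV. Its log2 difference was −0.002 in SE-BDEV (95% interval −0.11 to 0.10) and −0.08 in CON-BDEV (−0.19 to 0.03).

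**Figure D4:**
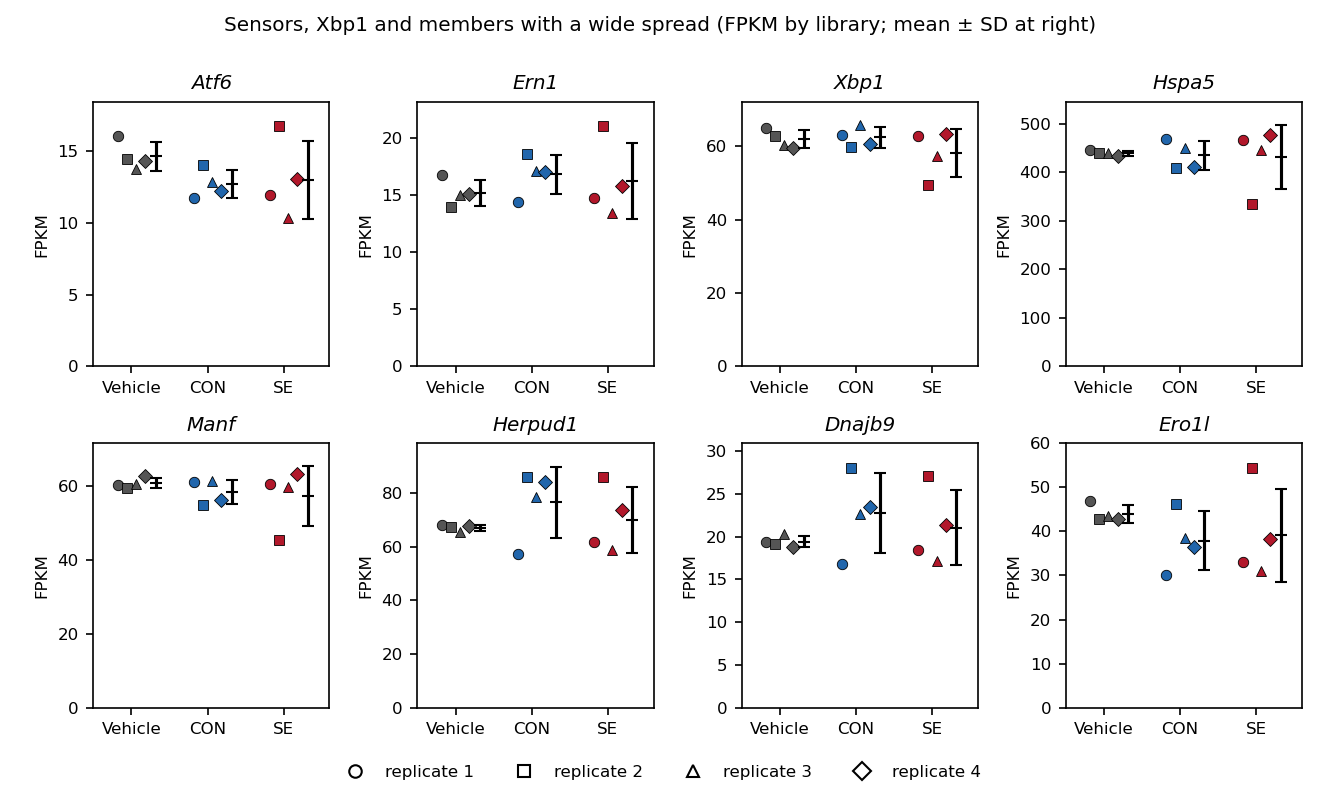
FPKM by library (points, shape by replicate) for the sensor genes Atf6 and Ern1, for Xbp1, Hspa5 and Manf, and for Herpud1, Dnajb9 and Ero1l, with the mean ± SD of each group of 4 at the right of its points and axes from 0. Replicate 2 (squares) is the highest SE-BDEV library for Atf6, Ern1, Herpud1, Dnajb9 and Ero1l and the lowest for Xbp1, Hspa5 and Manf.

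Correlations of log2(FPKM + 1) across the 12 libraries describe which genes were high together. Of the 595 pairs of genes, 106 had an adjusted p of at most 0.05 (100000 permutations of the libraries, two-sided, Benjamini-Hochberg over the 595 pairs), 80 of them positive and 26 negative. The pairs given here were chosen after their values were seen, and all pairs share the same libraries. Pairs of genes outside the list were not tested, so the share among genes in general is not known. Dnajb9 and Herpud1 had r = 0.96 (permutation p = 1e-05, the smallest these permutations can give; adjusted 0.003) and Spearman rho = 0.95 (permutation p = 2e-05, adjusted 0.0089), and r stayed at 0.96 without the 2 libraries farthest from the median, both of them replicate 2. Taken as deviations from group means, their r was 0.95. Atf6 and Ero1l had r = 0.94 (permutation p = 4e-05, adjusted 0.005) and rho = 0.92 (permutation p = 0.0001, adjusted 0.011), with r = 0.91 without the 2 farthest libraries and 0.93 within groups. Atf6 and Calr ran opposite, with r = −0.85 (permutation p = 0.00022, adjusted 0.0073) and rho = −0.84 (permutation p = 0.0012, adjusted 0.032), r = −0.86 without the 2 farthest libraries and −0.86 within groups.

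Within the chaperones, Hspa5 and Hsp90b1 had r = 0.91 (permutation p = 5e-05, adjusted 0.005) and rho = 0.82 (permutation p = 0.0019, adjusted 0.039), with r = 0.87 without the 2 farthest libraries and 0.97 within groups. Hspa5 and Manf had r = 0.95 (permutation p = 0.00029, adjusted 0.0078) and rho = 0.76 (permutation p = 0.0058, adjusted 0.064), and r dropped to 0.69 without the 2 farthest libraries. Between the sets, Hspa5 and Herpud1 had r = −0.66 (permutation p = 0.0079, adjusted 0.047) and rho = −0.60 (permutation p = 0.043, adjusted 0.18). Without SE-BDEV replicate 2 and CON-BDEV replicate 2 that r was −0.47, so the relation rests in part on those 2 libraries.

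Promoter matches, printed above, were found among genes that were low and high in SE-BDEV replicate 2. Of the tested genes with ERSE, Hspa5, Hsp90b1, Canx, Pdia6, Creld2, Dnajc3 and Syvn1 lay below all Vehicle libraries there. Calr lay at the Vehicle level and Ero1lb within the Vehicle range. Of the 2 with ERSE-II, Herpud1 lay above all Vehicle libraries and Dnajb11 below. In SE-BDEV replicate 2, 8 of the 11 tested genes with either match lay below all Vehicle libraries, as did 13 of the 19 without one, with median log2 differences of −0.11 and −0.09. In SE-BDEV replicates 1, 3 and 4 the medians were 0.07, 0.02 and 0.10 with a match and −0.01, −0.02 and 0.04 without. In CON-BDEV replicates 1 to 4 they were 0.08, −0.02, 0.04 and −0.01 with a match and −0.04, −0.01, 0.02 and −0.03 without.

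**Figure D5:**
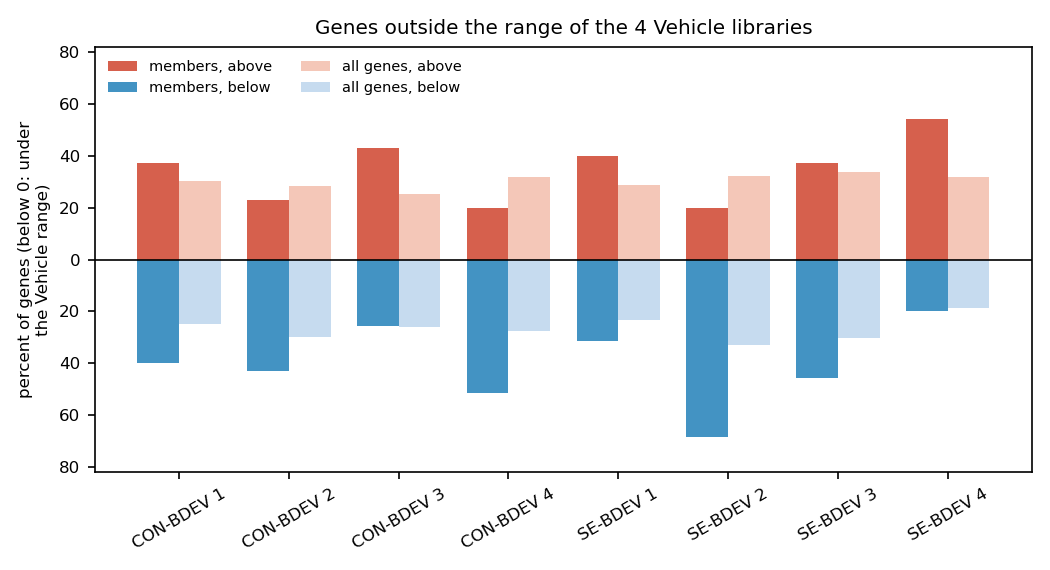
Percent of genes above (upward bars) or below (downward bars) the range of the 4 Vehicle libraries in each vesicle-treated library, for the 35 ER genes (dark, members in the legend) and for all 11312 genes (pale). In SE-BDEV replicate 2 the ER genes reach 68.6% below, and in SE-BDEV replicate 4 they reach 54.3% above. The median Vehicle range was 0.08 on the log2 scale for the ER genes and 0.13 for all genes, so dark and pale bars are not like for like.

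Between SE-BDEV and CON-BDEV no gene of the list passed the threshold. In the fit of all 12 libraries limma called 0 of the 35 genes and 0 of all 11312 genes (0.0%), while 2 of the 35 had an unadjusted p under 0.05 (5.71%, beside 2.62% of all genes), Ssr4 and Ero1lb. Ero1lb, the second ER oxidase gene, had 2.37, 2.32, 2.42 and 2.12 FPKM in Vehicle, 2.02, 2.87, 2.65 and 2.29 FPKM in CON-BDEV and 2.13, 2.14, 1.87 and 1.93 FPKM in SE-BDEV, so that the groups overlapped (log2 difference −0.19 from CON-BDEV; limma adjusted p = 1.0). The median difference of the list was −0.009. The 95% interval of SE-BDEV minus CON-BDEV was −0.10 to 0.11 for Calr, −0.21 to 0.16 for Hspa5 and −0.39 to 0.14 for Herpud1.

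Other genes of the ER were followed in 6 related lists of 97 genes, of which 95 were tested. In SE-BDEV 0 of the 95 passed in limma, where 0.919% of all genes did, and 16 had an unadjusted p under 0.05, where 14.8% of all genes did. In CON-BDEV 1 rose and 1 fell, where 2.84% of all genes passed, and 18 had an unadjusted p under 0.05, where 19.1% did. Sec11a, a catalytic subunit of the signal peptidase, had 48.1 to 50.8 FPKM over the Vehicle libraries and 56.3, 56.7, 53.0 and 56.2 FPKM in CON-BDEV (log2 difference 0.16 ± 0.03, standard error; limma adjusted p = 0.0252). In CON-BDEV, Sec11a was the 1 of 14 genes of translocation and signal peptide cleavage to pass. Its SE-BDEV libraries, with 54.3, 52.9, 57.7 and 53.1 FPKM, also lay above all Vehicle libraries (log2 difference 0.13; limma adjusted p = 0.139). Selk, a selenoprotein of the degradation complex and 1 of 20 genes of that list, had 68.5, 64.1, 67.0 and 68.2 FPKM in Vehicle and 62.0, 56.2, 59.1 and 59.1 FPKM in CON-BDEV (−0.18 ± 0.04, standard error; limma adjusted p = 0.0266). Its SE-BDEV libraries had 64.6, 56.7, 60.8 and 65.5 FPKM and overlapped with Vehicle (−0.11; limma adjusted p = 0.294). The lists of sensors and ATF6 processing, disulphide and prolyl isomerases and glycoprotein folding had 0 of 11, 0 of 17 and 0 of 20 genes past the threshold in either group.

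Of the PERK branch, 0 of 13 tested genes passed in either group, where 0.919% of all genes did in SE-BDEV and 2.84% in CON-BDEV. Its end point Ddit3 (CHOP), chosen after its values were seen, had 192, 145, 154 and 153 FPKM in Vehicle, 90.6, 251, 161 and 173 FPKM in CON-BDEV and 102, 301, 78.7 and 143 FPKM in SE-BDEV. It was thus highest in replicate 2 of each vesicle group, where Herpud1 and Dnajb9 were highest, and lowest in CON-BDEV replicate 1 and SE-BDEV replicate 3, where both were lowest. Its group differences were −0.23 ± 0.32 in SE-BDEV and −0.01 ± 0.24 in CON-BDEV (log2, standard error; limma adjusted p = 0.785 and 0.986). Atf4 itself had 562, 681, 546 and 650 FPKM in SE-BDEV and 543, 691, 662 and 646 FPKM in CON-BDEV, beside 666, 668, 680 and 676 FPKM in Vehicle, again with replicate 2 the highest of each vesicle group.

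Outside the ER lists, the 5 genes whose levels followed the mean of the 35 genes most closely over the 12 libraries were Ddb2 (r = 0.86), Cercam (0.86), Tmem63c (0.85), Rasa4 (0.85) and Padi2 (0.85). Predicted or unnamed loci, short RNA genes and rows with several names were left out of this ranking. These values describe likeness only, without a test. The difference of that mean from Vehicle ranged from −0.076 in SE-BDEV replicate 2 to 0.038 in SE-BDEV replicate 4.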

How the data were processed

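Per the submitters' processing notes, reads were aligned with TopHat2 and quantified with Cuffdiff on mm9. Their versions, the annotation and the strand setting: not given in the sources used here. The authors deposited FPKM per gene and library in 2 tables, each with the Vehicle libraries, and, per the file headers, Cuffdiff's log2 fold changes, test score, p-values and q-values. Vehicle columns differed between the tables by at most 0.0335% as a factor per library, so their mean was used in fits of all 12 libraries. On the log2(FPKM + 1) scale, limma 3.58.1 (R 4.3.3, empirical Bayes with trend, two-sided) was fitted to genes whose mean reached 1 FPKM, each vesicle group against Vehicle within its own table (8 libraries) and SE-BDEV against CON-BDEV over 12. This scale understates changes of low genes. The fit was tested on simulated data with planted changes larger than any group difference of this list, so differences of the size found here were not covered. Genes and lists were chosen with earlier results of these data known. Values by library are given for the sensors, Xbp1, Hspa5, Hsp90b1 and Calr, for genes called, for the 5 lowest p per comparison and for the 5 widest ranges, and related genes are named where called. Depths, from values up to 0.05 FPKM of genes of 1500 to 8000 bases read as 1 fragment, rest on newer transcript lengths. Figures used matplotlib 3.10.9 in Python 3.11.15. A check of markers of the cell line is not reported here.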

Additional observations from a re-analysis of the deposited data

Results flagged for a closer look

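Calr in SE-BDEV replicate 2 had 484 FPKM, far below the other 3 libraries of its group at 564, 574 and 566 FPKM, with a gap larger than the critical value of Dixon's test for 4 samples. The 18 genes with values by library were examined in this way in each of 3 groups, and chance marks about 1 in 20 such groups. The same library had the lowest Hspa5 (335 FPKM) of all 12.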

How the results depend on the processing

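The counts over all genes depended most on the settings. For SE-BDEV against Vehicle, limma called 104 of 11311 genes (0.919%). With no filter on low values it called 0 (2021 with an unadjusted p of at most 0.05). It called 171 of 11312 in the fit of all 12 libraries and 134 of 11311 after median scaling. With 1 library left out it called 5 to 315. For CON-BDEV, 321 of 11320 genes (2.84%) were called, against 176 with no filter. There were 133 of 11312 in the fit of all 12 libraries and 134 to 556 with 1 library left out. Of the 35 genes of the list, 0 were called in SE-BDEV, but 1 (Ssr4) with a mean of at least 5 FPKM, 1 (Ssr4) after median scaling, 1 (Ssr4) in the fit of all 12 libraries and 0 to 3 with 1 library left out. The 3 came without SE-BDEV replicate 2 (Calr, Ero1l and Ssr4), where 2.79% of all genes passed. The limma adjusted p of Ssr4 was 0.0492 with a mean of at least 5 FPKM and 0.05 after median scaling. In CON-BDEV 1 was called, against 0 in the fit of all 12 libraries and 0 to 4 with 1 library left out. The 4 came without CON-BDEV replicate 2 (Atf6, Calr, Pdia3 and Ero1l), where 3.68% of all genes passed. SE-BDEV against CON-BDEV gave 0 calls in every setting run. The causes were not tested.

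Same-numbered libraries did not all deviate together (correlations from −0.12 to 0.3), so the numbers were not taken to pair them. Between SE-BDEV and CON-BDEV the correlations for replicates 1 to 4 were 0.2, 0.3, −0.07 and −0.12. The highest with a library of another number were 0.1, 0.03, 0.18 and 0.09. Whether replicates 1 and 2 of these 2 groups shared culture or handling was not tested. In the library names, SE-BDEV and CON-BDEV libraries are numbered in turn and all Vehicle libraries come after them. If that was an order of handling, it cannot be told apart from treatment in the comparisons with Vehicle. With the replicate number as a block, 48 genes were called for SE-BDEV and 135 for CON-BDEV, and 0 of the list in CON-BDEV, where Calr kept its difference of 0.17 with a limma adjusted p of 0.0571.

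Some differences near 0 changed sign. With 1 library left out, log2 differences from Vehicle ranged in SE-BDEV from −0.03 to 0.18 for Dnajb9, −0.03 to 0.03 for Eif2ak3, −0.05 to 0.15 for Ern1, −0.06 to 0.12 for Herpud1 and −0.09 to 0.08 for Hspa5, and in CON-BDEV from −0.05 to 0.01 for Hspa5 and −0.02 to 0.03 for Xbp1. Those of SE-BDEV from CON-BDEV ranged from −0.11 to 0.11 for Atf6, −0.02 to 0.06 for Calr (−0.0028 after median scaling), −0.18 to 0.02 for Ern1, −0.14 to 0.13 for Ero1l, −0.03 to 0.04 for Hsp90b1, −0.08 to 0.09 for Hspa5, −0.01 to 0.06 for Sel1l and −0.14 to 0.01 for Sil1. Pseudocounts of 0.1 and 0.5 kept the calls of the list and the directions of the 18 genes given by library. With 4 libraries a group and FPKM in place of counts, small differences of the low genes are the least certain.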
